A study of Mus musculus with 10 samples.

Results

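The sirtuins are the 7 mouse genes Sirt1 to Sirt7, taken by symbol from the 41388 genes listed for each of 10 liver RNA-seq libraries, 1 library per mouse. All 7 were found and all 7 passed the filter on low counts. The libraries came from whole liver of 12-week-old mice of strain C57B/6J (spelled as in the labels), in 3 groups. WT Fasting mice (n = 3) were fasted for 24 h. WT Refed mice (n = 2) were fasted for 22 h and then given food for 2 h, so both had been through a long fast and neither was fed at will. NAMPT LKO Fasting mice (n = 5) were fasted for 24 h and lack Nampt, the enzyme that makes the NAD+ precursor nicotinamide mononucleotide from nicotinamide, in hepatocytes. Per the study the WT mice are NAMPT fl/fl littermates with an intact floxed gene. The deletion is driven by Cre recombinase under the Albumin promoter and is described there as hepatocyte-specific. Which liver cells hold the remaining Nampt mRNA was not tested. Elsewhere the study describes these libraries as from a shorter fast and from fed controls that had not been fasted, and the labels were followed here. No refed NAMPT LKO mouse was analysed here, so fasted and refed liver cannot be compared within NAMPT LKO. A comparison of NAMPT LKO Fasting with WT Refed liver changes genotype and feeding together. All 3 groups had been fasted, so no comparison here measures fasting against feeding at will. For a gene, rose and fell mean higher and lower in fasted than in refed liver. Whether the fasted or the refed livers had changed was not tested.

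Sirtuins are NAD+-dependent protein deacylases: each reaction that removes an acyl group from a lysine consumes a molecule of NAD+ and releases nicotinamide, which NAMPT recycles. SIRT1, SIRT6 and SIRT7 act mainly in the nucleus, with SIRT7 concentrated in the nucleolus, SIRT2 acts mainly in the cytosol, and SIRT3, SIRT4 and SIRT5 are mitochondrial. In liver, SIRT1 is known for deacetylating regulators of gluconeogenesis and fatty acid oxidation in fasting, and SIRT3 for deacetylating mitochondrial enzymes. These libraries measure mRNA, not protein, NAD+ or deacylase activity.

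Expression of 2 of the sirtuins was 1.55-fold higher in fasted than in refed WT liver. Sirt1 rose and passed the test. Sirt3 differed by the same factor without passing it. Sirt2, Sirt4, Sirt5, Sirt6 and Sirt7 had estimated ratios between 0.896 and 1.12. Between NAMPT LKO and WT livers, both fasted, none of the 7 passed the test, and Sirt1 was again higher in NAMPT LKO Fasting than in WT Refed liver. Of all 13444 genes tested, 7.04% passed in fasted vs. refed WT (360 higher and 586 lower), 0.00744% (Nampt alone) in fasted NAMPT LKO vs. fasted WT and 11.2% in fasted NAMPT LKO vs. refed WT (625 higher and 885 lower). Against these shares, the sirtuins gave 1, 0 and 1 of 7. A gene passed when its p, adjusted by Benjamini-Hochberg over all genes tested, was at or under 0.05 in the quasi-likelihood test of edgeR, fitted to the counts of all 10 libraries together. Values given as CPM are counts divided by the library total and scaled by the trimmed mean of M-values (TMM). Values given as RPKM are the deposited levels, which divide counts by the library total and exonic length without TMM scaling. Errors of log2 fold changes are standard errors (SE). When library totals replaced TMM, the share of passing genes that were higher fell from 38.1% to 26.4% in fasted vs. refed WT and from 41.4% to 26.3% in fasted NAMPT LKO vs. refed WT.

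Library totals ranged from 30603080 to 43434139 counts. Mouse 5 of NAMPT LKO Fasting stood apart: mitochondrial genes took 21.1% of its counts against 7.42% to 12.9% in the other 9 libraries. Its values are named in the results below, with group values and calls repeated without it where it changed them most. Nampt (ENSMUSG00000020572), the targeted gene, was measured at 11.9, 13.8, 11.6, 12.4 and 15.1 CPM in the 5 NAMPT LKO Fasting livers, at 62.1, 72.3 and 139 CPM in the 3 WT Fasting livers and at 76.9 and 66.8 CPM in the 2 WT Refed livers. All 5 libraries labelled NAMPT LKO lay below every WT library. The summed level of 6 hepatocyte markers (untransformed CPM) was 67910 to 104500 in the 10 libraries, whereas pancreatic acinar markers summed to at most 0.316 and adipocyte markers to at most 1.83. The 5 cholangiocyte markers summed to 34.6 to 51.0 in NAMPT LKO Fasting, 15.2 to 21.2 in WT Fasting and 20.7 to 23.1 in WT Refed liver, and their part in any result below was not tested. In whole liver, fewer cells of a type and less RNA per cell cannot be told apart.

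The genes lie at separate loci of GRCm38. Sirt1 (ENSMUSG00000020063) spans 63319005 to 63381704 on the minus strand of chromosome 10, Sirt6 (ENSMUSG00000034748) 81621785 to 81627797 on the same strand and chromosome, Sirt2 (ENSMUSG00000015149) 28766735 to 28788665 on the plus strand of chromosome 7, Sirt3 (ENSMUSG00000025486) 140863670 to 140882309 on the minus strand of chromosome 7, Sirt4 (ENSMUSG00000029524) 115478010 to 115484725 on the minus strand of chromosome 5, Sirt5 (ENSMUSG00000054021) 43370710 to 43395202 on the plus strand of chromosome 13, and Sirt7 (ENSMUSG00000025138) 120618372 to 120625240 on the minus strand of chromosome 11. Exonic length, by which RPKM divides, ran from 1367 bases (Sirt5) to 5331 bases (Sirt1). Sirt3 shared the most exonic sequence with other genes, 13.6% of its bases (with Psmd13 and Ric8a), followed by Sirt7 with 3.46% (mainly Mafg). Per the study's methods only unambiguous reads were counted. Whether counting used strand is not stated, so it is not known whether reads on those shared bases were counted or left out.

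The promoters of Sirt1 and Sirt3, the sirtuins with the larger differences between fasted and refed liver, are shown as the 250 bases before the RefSeq transcription start (GRCm38.p6). All 7 sirtuins matched a window in the RefSeq table, and Sirt3 and Sirt6 each had a second start, giving 9 windows. The Sirt1 sequence is chr10:63339036-63339285, minus strand, with the E-box hexamer CACGTG in capitals. The Sirt3 sequence is chr7:140882310-140882559, minus strand, ending at the gene's annotated 5′ end, with the reverse complement of the ETS-type word CCGGAAG in capitals.
Sirt1: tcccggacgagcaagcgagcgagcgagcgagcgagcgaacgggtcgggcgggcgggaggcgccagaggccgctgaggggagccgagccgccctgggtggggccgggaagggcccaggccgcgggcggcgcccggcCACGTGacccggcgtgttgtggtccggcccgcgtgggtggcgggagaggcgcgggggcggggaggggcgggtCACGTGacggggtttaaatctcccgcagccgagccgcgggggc
Sirt3: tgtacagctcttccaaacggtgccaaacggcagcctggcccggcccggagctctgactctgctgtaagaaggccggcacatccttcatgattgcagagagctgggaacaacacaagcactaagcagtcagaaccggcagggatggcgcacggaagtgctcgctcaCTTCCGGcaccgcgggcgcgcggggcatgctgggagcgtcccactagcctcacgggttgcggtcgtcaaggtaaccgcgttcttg
The Sirt1 window carried CACGTG at 2 places, beginning 115 and 43 bases before the start (offsets -115 and -43), and none of the other 8 sirtuin windows carried it. Among all 32851 mouse windows of 300 bases (250 before to 50 after the start), 7.15% held CACGTG. The ETS-type word, searched on both strands, was found in 1 of the Sirt3 windows (offset -85), 1 of the Sirt6 windows and the Sirt7 window, against 8.86% of all windows. The Sirt1 window had 7 matches on either strand to the GC box GGGCGG, some of them overlapping. GGGCGG was also found in the Sirt2, Sirt5 and Sirt7 windows, in 1 of the Sirt6 windows and in the Sirt3 window not shown (4 matches). That word was found in 35.7% of all windows, and GC content of the 250 Sirt1 bases shown was 79.2%. The cAMP response element (TGACGTCA, in 1.79% of all windows) was found in none of the 9 sirtuin windows. A forkhead word (TGTTTAC, in 3.65% of all windows) was likewise found in none. Such matches describe the letters of these windows and say nothing about binding.

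Per exon length, Sirt3 was the most abundant sirtuin mRNA in every group and Sirt6 the least. That length counts all annotated exonic bases of a gene, and whether the transcripts present span them was not tested. Mean RPKM in WT Fasting liver (± SD, n = 3) was 40.4 ± 0.881 for Sirt3, 17.4 ± 0.275 for Sirt2, 5.89 ± 0.482 for Sirt7, 4.77 ± 0.275 for Sirt5, 2.85 ± 0.449 for Sirt4, 1.95 ± 0.153 for Sirt1 and 1.21 ± 0.135 for Sirt6. No neighbours in that order overlapped in RPKM in WT Fasting liver. The order of the means was the same in WT Refed liver, where Sirt7 and Sirt5 overlapped, and in NAMPT LKO Fasting liver, where Sirt3 and Sirt2, Sirt7 and Sirt5, and Sirt4 and Sirt1 overlapped. Without mouse 5 only Sirt7 and Sirt5 did so in NAMPT LKO Fasting liver. Averaged over the 10 libraries, Sirt3 at 34.4 RPKM stood above 90.1% of the genes tested, Sirt2 above 83.3%, Sirt1 at 1.89 RPKM above 35.0% and Sirt6 at 1.05 RPKM above 23.7%.

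**Figure D1:**
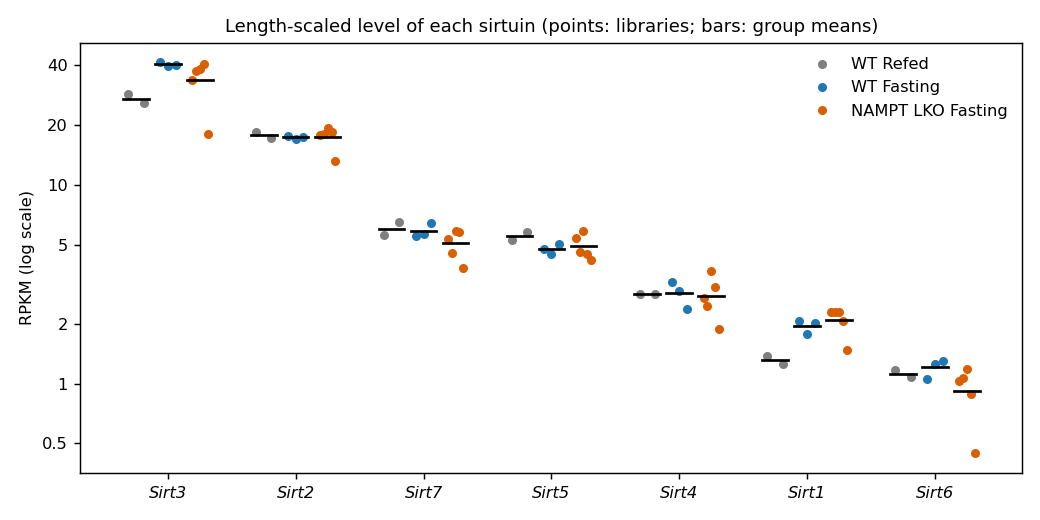
Deposited RPKM on a log axis for each sirtuin, with genes ordered from the most to the least abundant, 1 point per library coloured by group and bars at the group means. Sirt3 at 18.1 to 41.5 RPKM and Sirt2 at 13.2 to 19.4 RPKM stand above the other 5 genes, and the lowest NAMPT LKO Fasting point is mouse 5 for all 7 genes. In TMM-scaled CPM mouse 5 was not the lowest of that group for Sirt5 (6.73, lowest 6.10) or Sirt7 (23.23, lowest 23.16).

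Summed over the 7 genes, the sirtuin level was 61.9 ± 2.22 RPKM (SD, n = 2) in WT Refed, 74.5 ± 1.30 RPKM (SD, n = 3) in WT Fasting and 66.8 ± 13.6 RPKM (SD, n = 5) in NAMPT LKO Fasting liver, where mouse 5 had 43.2 RPKM, the lowest of the 10. The deposited RPKM is not TMM-scaled, and the TMM factor of mouse 5 was 0.851. Without mouse 5 the NAMPT LKO Fasting sum was 72.7 ± 3.93 RPKM (SD, n = 4). Sirt3 made up 44.0% ± 1.80 of that sum in WT Refed, 54.3% ± 0.612 in WT Fasting and 49.7% ± 4.70 in NAMPT LKO Fasting liver (SD, n = 2, 3 and 5), or 51.6% ± 2.11 in the last group without mouse 5 (n = 4). Sirt1 made up 2.12% ± 0.0678, 2.62% ± 0.164 and 3.16% ± 0.284 in the same groups, and Sirt2 28.8% ± 0.484, 23.4% ± 0.0543 and 26.5% ± 2.41. Without mouse 5 the last group had 3.09% ± 0.277 for Sirt1 and 25.4% ± 0.585 for Sirt2. These shares are given as a description, without a test.

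Sirt1, the nuclear deacetylase of PGC-1α and FOXO factors, was measured at 7.004 and 6.387 CPM in the 2 WT Refed livers and at 10.8, 9.84 and 10.4 CPM in the 3 WT Fasting livers. It was measured at 11.9, 12.2, 11.8, 11.0 and 9.27 CPM in the 5 NAMPT LKO Fasting livers, from 281 to 503 counts per library over all groups. Both refed livers lay below every fasted liver, and the 2 fasted groups overlapped, with NAMPT LKO Fasting mouse 5 the lowest fasted liver. Groups that do not overlap were common in fasted vs. refed WT (49.7% of all genes), less so in fasted NAMPT LKO vs. refed WT (33.5%), and uncommon in fasted NAMPT LKO vs. fasted WT (3.99%). Sirt1 was 1.55-fold higher in WT Fasting than in WT Refed liver (95% confidence interval 1.22 to 1.96, log2 fold change 0.63, SE 0.15, edgeR quasi-likelihood adjusted p = 0.0335). Of all genes tested, 81.2% had a smaller absolute log2 fold change in that comparison. In fasted NAMPT LKO vs. refed WT liver, which uses the same 2 refed libraries, Sirt1 was 1.68-fold higher (95% confidence interval 1.35 to 2.09, log2 fold change 0.75, SE 0.14, adjusted p = 0.00866 from the same test). Between the genotypes, both fasted, the ratio was 1.08 with an interval from 0.902 to 1.31 (log2 fold change 0.12, edgeR quasi-likelihood adjusted p = 0.865), and without mouse 5 the log2 fold change was 0.18 (adjusted p = 0.634).

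The call for Sirt1 in WT liver lay close to the threshold. The log2 fold change stayed between 0.56 and 0.69 when any 1 library was left out, whereas the adjusted p was 0.153 without WT Refed mouse 1, 0.283 without WT Refed mouse 2, 0.0634 to 0.0919 without a WT Fasting mouse, 0.0517 without NAMPT LKO Fasting mouse 2, 0.0535 without mouse 3 of that group and 0.00464 without mouse 5. The call in fasted NAMPT LKO vs. refed WT was lost without WT Refed mouse 1 (adjusted p = 0.0740) or mouse 2 (0.138), and without NAMPT LKO Fasting mouse 5 the adjusted p was 9.43e-04.

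Sirt3, the main mitochondrial deacetylase, was measured at 43.0 and 38.8 CPM in WT Refed, at 64.0, 65.0 and 60.9 CPM in WT Fasting and at 52.1, 58.3, 58.4, 63.4 and 33.4 CPM in NAMPT LKO Fasting liver. The WT groups did not overlap. Mouse 5 of NAMPT LKO Fasting, at 33.4 CPM, lay below both refed livers, and the other 4 lay above them. In fasted vs. refed WT the ratio was 1.55 (95% confidence interval 1.10 to 2.17, log2 fold change 0.63, SE 0.22, unadjusted p = 0.0158, edgeR quasi-likelihood adjusted p = 0.117). The point estimate matched that of Sirt1, and the standard error was larger. The spread of Sirt3 was 22.1% of the mean over the 5 NAMPT LKO Fasting livers, where counting alone gives 2.30%, 7.996% over the 4 without mouse 5, and 3.40% over the 3 WT Fasting livers. The fit pools the spread of all groups. Without NAMPT LKO Fasting mouse 5, Sirt3 passed in fasted vs. refed WT (log2 fold change 0.63, edgeR quasi-likelihood adjusted p = 0.00249) and in fasted NAMPT LKO vs. refed WT (0.51, adjusted p = 0.00444). With mouse 5 the latter was 0.38 (SE 0.20, adjusted p = 0.273). Sirt3 also passed in fasted vs. refed WT when the 2 WT groups were fitted alone (adjusted p = 0.0116). In the same test it did not pass without any 1 WT Fasting mouse (adjusted p = 0.165 to 0.214). Nor did it pass with library totals in place of TMM (adjusted p = 0.255). The log2 fold change was 0.70 without WT Refed mouse 1 and 0.55 without WT Refed mouse 2. Between fasted genotypes the log2 fold change was -0.25 with mouse 5 (SE 0.17, adjusted p = 0.839) and -0.13 without it (adjusted p = 0.708).

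**Figure D2:**
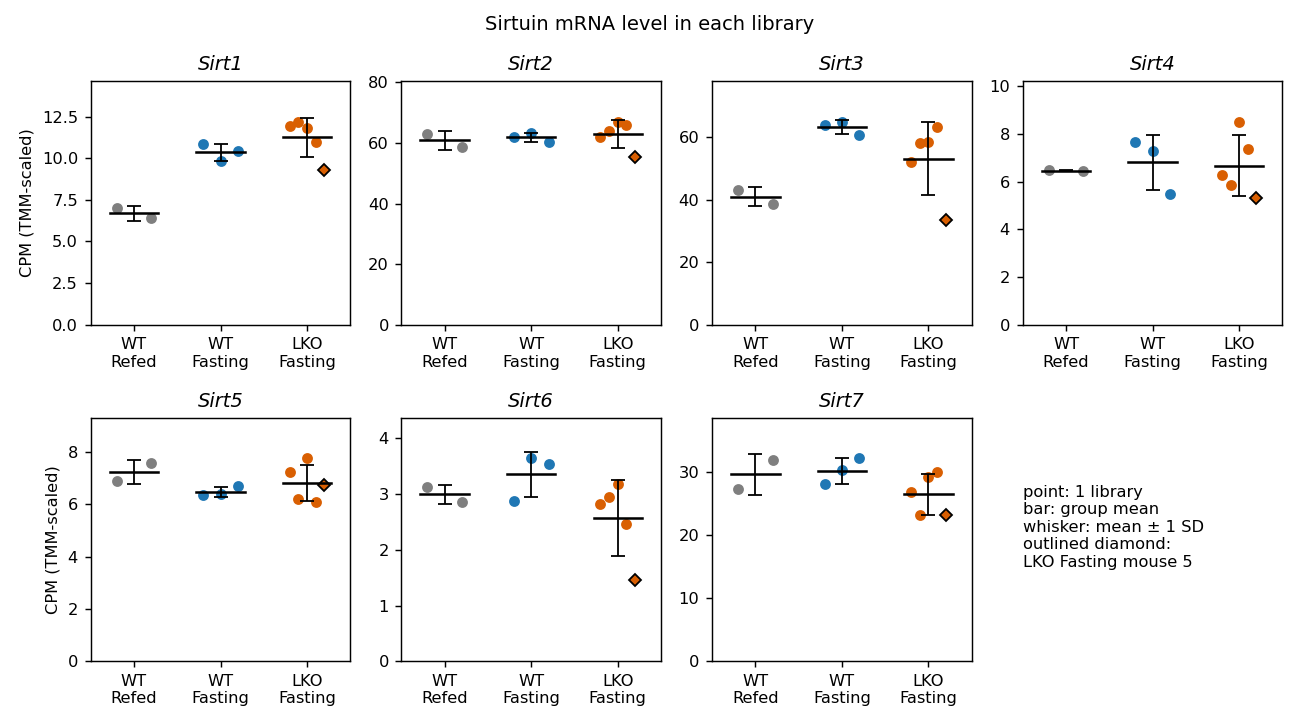
TMM-scaled CPM of each sirtuin (vertical axes from 0, 1 panel per gene) in the 2 WT Refed, 3 WT Fasting and 5 NAMPT LKO Fasting (LKO Fasting) libraries. Points are libraries, bars are group means and whiskers are 1 SD, and the outlined diamond is NAMPT LKO Fasting mouse 5. For Sirt1 and Sirt3 both refed points lie below all WT Fasting points, which is not so for the other 5 genes.

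The other mitochondrial sirtuins differed less. Sirt4, which has lipoamidase and ADP-ribosyltransferase activity and restrains glutamate dehydrogenase, was at 6.47 and 6.45 CPM in WT Refed, at 7.65, 7.30 and 5.50 CPM in WT Fasting and at 6.30, 5.88, 8.51, 7.36 and 5.30 CPM in NAMPT LKO Fasting liver. The groups overlapped throughout, and the near-identity of the 2 refed values (a spread of 0.200% of the mean) is tighter than the 5.89% that counting alone would give. In fasted vs. refed WT the ratio was 1.05 (interval 0.750 to 1.48, edgeR quasi-likelihood adjusted p = 0.878). Sirt5, which removes succinyl, malonyl and glutaryl groups from mitochondrial enzymes such as carbamoyl phosphate synthase, was at 6.91 and 7.57 CPM in WT Refed, at 6.38, 6.39 and 6.70 CPM in WT Fasting and at 7.26, 6.22, 7.76, 6.10 and 6.73 CPM in NAMPT LKO Fasting liver. Its 2 refed values lay above its 3 WT Fasting values. The ratio was 0.896 (interval 0.706 to 1.14, adjusted p = 0.598 from the same test), so a fall of this size was not detectable with these numbers of mice.

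Sirt2, the mainly cytosolic deacetylase known for acting on α-tubulin, was measured with 1905 to 2851 counts per library. It was at 63.0 and 58.7 CPM in WT Refed, at 61.9, 63.3 and 60.4 CPM in WT Fasting and at 62.1, 64.0, 67.0, 66.1 and 55.5 CPM in NAMPT LKO Fasting liver, and all groups overlapped. Its ratio of WT Fasting to WT Refed was 1.02 with an interval from 0.857 to 1.21 (edgeR quasi-likelihood adjusted p = 0.925), and its ratio of NAMPT LKO Fasting to WT Fasting was 1.02 with an interval from 0.887 to 1.17 (adjusted p = 0.963). These intervals are the narrowest among the 7 genes in each comparison.

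Of the other nuclear members, Sirt6, a histone deacetylase and mono-ADP-ribosyltransferase known for restraining glycolytic genes, was at 3.11 and 2.86 CPM in WT Refed, at 2.88, 3.64 and 3.53 CPM in WT Fasting and at 2.81, 2.94, 3.18, 2.46 and 1.46 CPM in NAMPT LKO Fasting liver. The groups overlapped, and the lowest value, in NAMPT LKO Fasting mouse 5, rests on 50 counts. The log2 fold change in fasted NAMPT LKO vs. fasted WT was -0.38 (SE 0.24, fold interval 0.534 to 1.11, edgeR quasi-likelihood adjusted p = 0.839) and -0.23 without mouse 5 (adjusted p = 0.734). Sirt7, the nucleolar sirtuin linked to RNA polymerase I transcription, was at 27.4 and 32.0 CPM in WT Refed, at 28.1, 30.3 and 32.2 CPM in WT Fasting and at 26.8, 23.2, 29.3, 29.9 and 23.2 CPM in NAMPT LKO Fasting liver, and all groups overlapped. Its log2 fold change in fasted NAMPT LKO vs. fasted WT was -0.19 (SE 0.12, fold interval 0.734 to 1.05, adjusted p = 0.837 from the same test), and -0.15 without mouse 5 (adjusted p = 0.739).

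**Figure D3:**
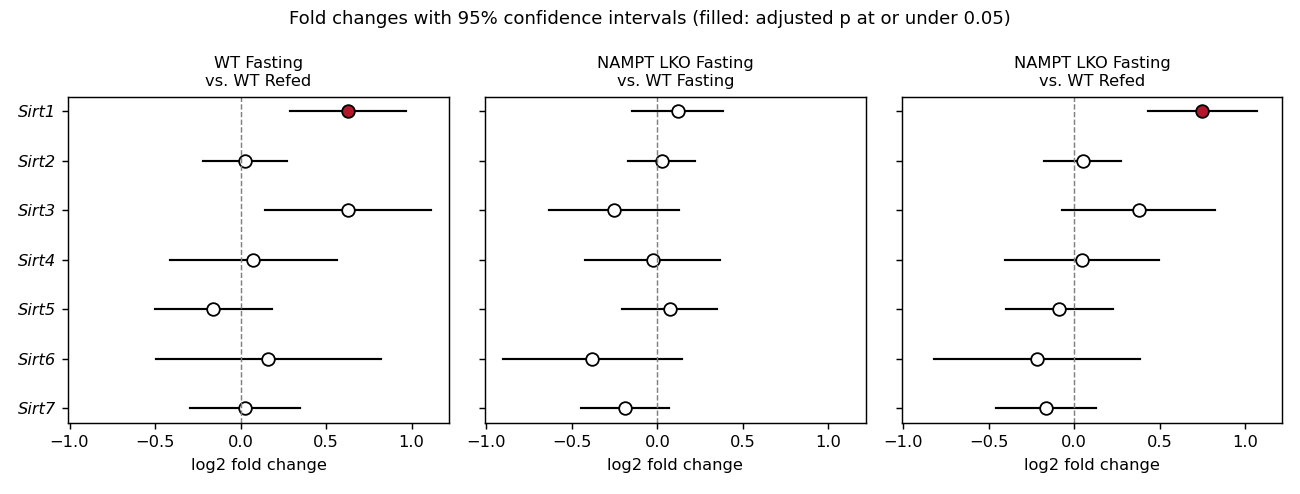
Log2 fold change (horizontal axis) of each sirtuin in the 3 comparisons, with lines for 95% confidence intervals and filled points for adjusted p at or under 0.05. Only Sirt1 is filled, in both comparisons with WT Refed liver, and all 7 intervals include 0 in NAMPT LKO Fasting vs. WT Fasting.

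Over the 7 genes, the median log2 fold change was 0.08 in fasted vs. refed WT (all genes 0.04), -0.03 in fasted NAMPT LKO vs. fasted WT (all genes 2.42e-04) and 0.05 in fasted NAMPT LKO vs. refed WT (all genes 0.03). Groups did not overlap for 3 of the 7 genes in the first comparison (Sirt1, Sirt3 and Sirt5), for 0 in the second and for 1 (Sirt1) in the third, beside the shares of all genes given above. At an unadjusted p under 0.05 the counts were 2, 0 and 1 of 7, and 3002, 811 and 3508 of all 13444 genes. None of the 7 passed in fasted NAMPT LKO vs. fasted WT by edgeR's exact test, by limma's voomWithQualityWeights or by DESeq2 either.

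**Figure D4:**
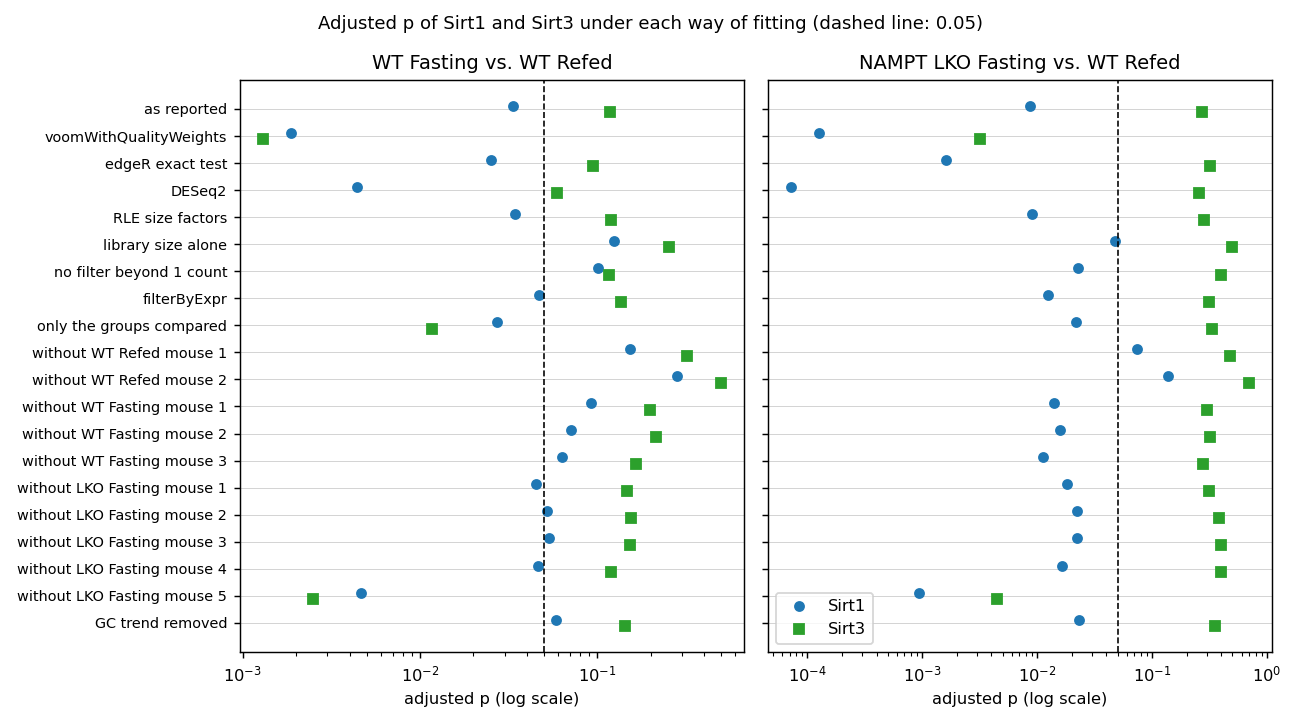
Adjusted p on a log axis for Sirt1 (circles) and Sirt3 (squares) as reported, under other tests, scalings and filters, and with each library left out, for the 2 comparisons with WT Refed liver. The dashed line marks 0.05. In WT Fasting vs. WT Refed many Sirt1 points sit near the line, and Sirt3 lies left of it in 3 fits (voomWithQualityWeights, only the groups compared, and without NAMPT LKO Fasting mouse 5).

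Several sirtuins lie head to head with another gene. Dnajc12, which encodes a J-domain co-chaperone, begins 739 bases from the annotated 5′ end of Sirt1 on the opposite strand, although the RefSeq start of Sirt1 whose promoter is printed above lies 42669 bases inside that end. Dnajc12 was at 4.62 and 4.39 CPM in WT Refed, at 8.12, 6.02 and 7.75 CPM in WT Fasting and at 6.90, 6.89, 6.37, 6.98 and 5.97 CPM in NAMPT LKO Fasting liver. Like Sirt1 it rose in fasted vs. refed WT (log2 fold change 0.70, SE 0.17, adjusted p = 0.0355) and was higher in fasted NAMPT LKO vs. refed WT (0.56, SE 0.16, adjusted p = 0.0486, the edgeR quasi-likelihood test). Psmd13, a proteasome subunit gene that begins 341 bases from Sirt3 on the opposite strand and shares exonic bases with it, gave a log2 fold change of 0.06 (SE 0.12, adjusted p = 0.825) in fasted vs. refed WT, against 0.63 for Sirt3. Ric8a, which also shares bases with Sirt3, gave 0.02 (adjusted p = 0.954). Nfkbib beside Sirt2, Ankrd24 beside Sirt6 and Mafg beside Sirt7 passed in none of the 3 comparisons by the edgeR quasi-likelihood test.

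The genes whose pattern over the 10 libraries was most like that of each sirtuin were ranked by Pearson's r of log2 CPM among the 8849 protein-coding genes that averaged 5 CPM or more. For Sirt1 these were Depp1 (r = 0.975), Avl9 (0.970) and Ago1 (0.970). Depp1, a known FOXO target gene, averaged 5.11 CPM in WT Refed, 41.1 CPM in WT Fasting and 55.5 CPM in NAMPT LKO Fasting liver. For Sirt3 they were Cyp2d26 (0.982), Tbc1d20 (0.973) and Ptcd1 (0.972), for Sirt6 Akr7a5 (0.981), Vps18 (0.970) and Atxn2l (0.966), for Sirt2 Abhd3 (0.957), Vegfb (0.936) and Cnnm2 (0.935), for Sirt7 Fmc1 (0.920), Tusc3 (0.902) and Ppp5c (0.891), for Sirt5 Pea15a (0.901), Pigb (0.870) and Pogz (0.863), and for Sirt4 Tmem184a (0.870), Slc25a11 (0.855) and Jkamp (0.852). These are descriptions over n = 10 libraries, which fall into 3 groups and include mouse 5. After each group's mean was subtracted, r with Sirt1 was 0.833 for Depp1 and 0.973 for Ago1, and only 2 of the 21 genes kept a place among the top 3. Without mouse 5, over 9 libraries, 7 of the 21 did, and r with Sirt1 was 0.992 for Depp1 and 0.979 for Ago1. Between sirtuins, r ran from -0.433 (Sirt3 and Sirt5) to 0.742 (Sirt2 and Sirt3), and that of Sirt1 and Sirt3 was 0.664. After each group's mean was subtracted, r was -0.164 for Sirt3 and Sirt5, 0.948 for Sirt2 and Sirt3 and 0.789 for Sirt1 and Sirt3, and that of Sirt1 and Sirt6 went from 0.0557 to 0.816. Several of these values changed when mouse 5 was left out: r of the deviations was -0.638 for Sirt3 and Sirt5, 0.838 for Sirt2 and Sirt3, -0.189 for Sirt1 and Sirt3 and 0.133 for Sirt1 and Sirt6, whereas r of the levels of Sirt1 and Sirt3 was 0.812.

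The genes around the sirtuins were examined by 6 lists. Among the 11 zinc-dependent histone deacetylases, the other class of lysine deacetylase, none passed in any comparison by the edgeR quasi-likelihood test, with 1, 0 and 2 members at an unadjusted p under 0.05 in the order used above. Of all genes, 7.04%, 0.00744% and 11.2% passed, and 3002, 811 and 3508 of 13444 were at an unadjusted p under 0.05. Hdac1 had the lowest p in both comparisons with refed liver: its log2 fold change was -0.38 (SE 0.13, adjusted p = 0.0970) in fasted vs. refed WT and -0.37 (SE 0.11, adjusted p = 0.0597) in fasted NAMPT LKO vs. refed WT. Hdac8 had the lowest p between fasted genotypes (0.29, adjusted p = 0.844). The median over the list was 0.16, 0.01 and 0.16.

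Of 21 tested genes of NAD+ supply and nicotinamide clearance (24 listed), 1 rose in fasted vs. refed WT: Slc25a51, the mitochondrial NAD+ carrier, which averaged 50.2 CPM in WT Refed, 85.6 CPM in WT Fasting and 80.9 CPM in NAMPT LKO Fasting liver (log2 fold change 0.77, SE 0.15, edgeR quasi-likelihood adjusted p = 0.0111). It was also higher in fasted NAMPT LKO vs. refed WT (0.69, SE 0.14, adjusted p = 0.00955), as was Tdo2, which opens tryptophan breakdown (0.66, SE 0.18, adjusted p = 0.0400). Nampt was lower (log2 fold change -2.81, adjusted p = 0.00102) in fasted NAMPT LKO vs. fasted WT and passed in fasted NAMPT LKO vs. refed WT (-2.47, adjusted p = 2.67e-04). Over this list 4.76%, 4.76% and 14.3% passed, against 7.04%, 0.00744% and 11.2% of all genes. The list medians were 0.07, -0.06 and -0.12.

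Of 16 SIRT1 regulators and partners, 0, 0 and 2 passed in the 3 comparisons by the edgeR quasi-likelihood test, and 3, 0 and 3 had an unadjusted p under 0.05. Ppara, a nuclear receptor active in fasting, was higher in fasted NAMPT LKO vs. refed WT (log2 fold change 0.53, SE 0.15, adjusted p = 0.0454), and Elavl1, an RNA-binding protein known to stabilize Sirt1 mRNA, was lower (-0.46, SE 0.10, adjusted p = 0.0132). In fasted vs. refed WT, Elavl1 missed the threshold (-0.39, SE 0.11, adjusted p = 0.0503), at 33.7 CPM in WT Refed and 25.6 CPM in WT Fasting liver. The lowest p in fasted NAMPT LKO vs. fasted WT was that of E2f1 (-0.43, SE 0.20, adjusted p = 0.828). Over this list 0%, 0% and 12.5% passed, against 7.04%, 0.00744% and 11.2% of all genes. The list medians were -0.04, 0.05 and -0.06.

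Among 27 genes that encode protein substrates of nuclear and cytosolic sirtuins, 1 rose and 3 fell in fasted vs. refed WT. Pck1, the gluconeogenic enzyme, rose by 1.41 (SE 0.17, adjusted p = 0.00138), and Per2 (clock repressor, -1.71, adjusted p = 0.0232), Polr1e (RNA polymerase I subunit, -1.24, adjusted p = 0.00511) and Foxa2 (hepatocyte transcription factor, -1.09, adjusted p = 0.0350) fell on the log2 scale in the edgeR quasi-likelihood test. The same list had 2 members higher and 4 lower in fasted NAMPT LKO vs. refed WT, among them Pck1 (1.18), Per2 (-1.94), Polr1e (-1.15) and Nr1h3, the oxysterol receptor LXRα (-0.60). None passed in fasted NAMPT LKO vs. fasted WT, where Nr1h3 had the lowest p (-0.19, adjusted p = 0.837) and none was at an unadjusted p under 0.05. Over this list 14.8%, 0% and 22.2% passed, against 7.04%, 0.00744% and 11.2% of all genes. The list medians were -0.13, -0.06 and -0.14. Of 23 tested genes for protein substrates of the mitochondrial sirtuins (24 listed), none passed in any comparison, with 2, 1 and 3 at an unadjusted p under 0.05 and medians of 0.07, -0.06 and 0.01. The passing shares of all genes are those just given, and 3002, 811 and 3508 of 13444 were at an unadjusted p under 0.05. Aldh2, the mitochondrial aldehyde dehydrogenase, had the lowest p in fasted NAMPT LKO vs. fasted WT (-0.28, SE 0.12, adjusted p = 0.827).

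Of 13 genes reported elsewhere to lie downstream of hepatic SIRT1 or SIRT6, 3 rose and 1 fell in fasted vs. refed WT. G6pc, the last enzyme of glucose release, rose by 3.21 (SE 0.50, adjusted p = 0.00444), Pdk4, which holds back pyruvate dehydrogenase, by 3.00 (SE 0.51, adjusted p = 0.00715) and the hepatokine gene Fgf21 by 2.92 (SE 0.53, adjusted p = 0.00987) in the edgeR quasi-likelihood test. Against refed WT liver, fasted NAMPT LKO liver had 4 of them higher and 3 lower, with Fgf21 at 3.63. Between fasted genotypes none passed and none was at an unadjusted p under 0.05. Fgf21 had the lowest p (0.71, SE 0.37, adjusted p = 0.837). The list medians were 0.18, -0.04 and 0.32. Of the list, 30.8%, 0% and 53.8% passed, against 7.04%, 0.00744% and 11.2% of all genes. All of these genes respond to several regulators besides sirtuins, and the lists were chosen with earlier results of these data known.

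**Figure D5:**
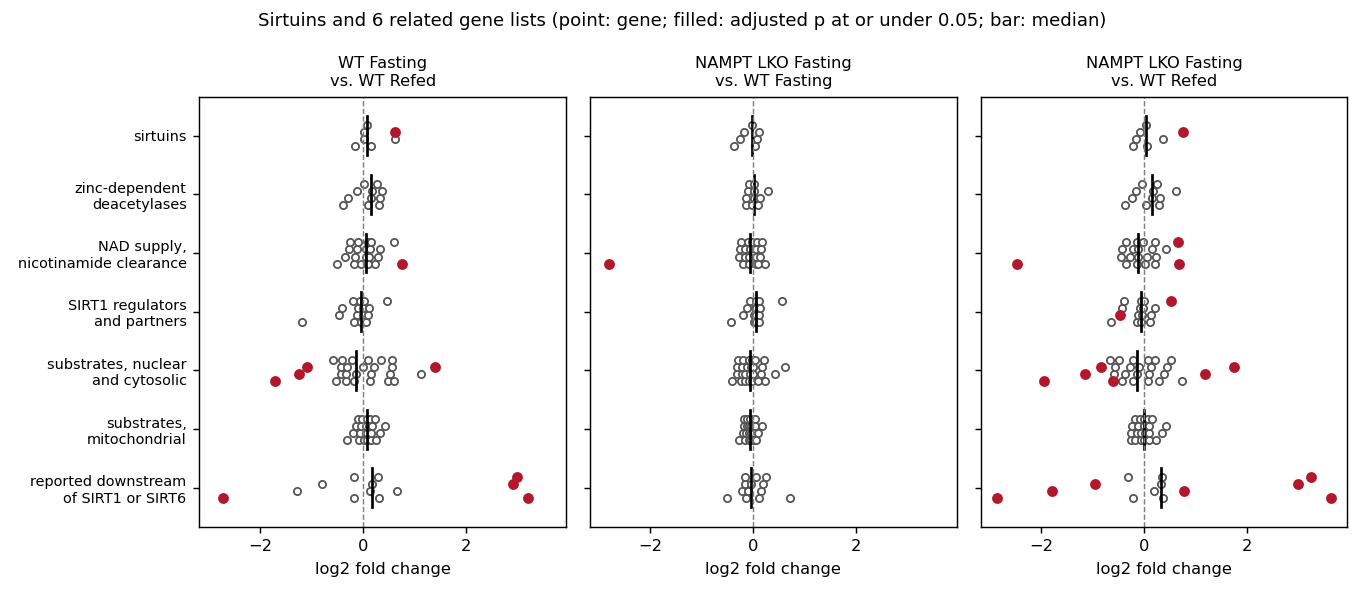
Log2 fold change (horizontal axis) of the 7 sirtuins and of the genes of 6 related lists in the 3 comparisons. Each point is a gene, filled where the adjusted p was at or under 0.05, and bars are list medians. The sirtuins lie within -0.38 and 0.75 in all panels, and in NAMPT LKO Fasting vs. WT Fasting the filled point is Nampt.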

How the data were processed

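Total RNA of 10 livers was sequenced after poly-A selection. Per the labels the authors used STAR 2.5.1a on GRCm38 and featureCounts 1.4.6-p5; the paper's methods name other versions of both. The authors deposited raw counts for 41388 Ensembl genes. They also deposited CPM values, which divide counts by the library total, and RPKM values, which further divide by exonic length and were used for levels between genes. Here rRNA genes were left out and genes were kept if any library exceeded 1 CPM (13444 genes), TMM-scaled and tested with edgeR 4.0.16 (quasi-likelihood, 1 mean per group, all 10 libraries, Benjamini-Hochberg over all 13444 genes) in R 4.3.3. Intervals are 95%. The study's voomWithQualityWeights (limma 3.58.1), edgeR's exact test, DESeq2 1.42.0, other scalings and filters, removal of each library's GC trend (loess span 0.5) and each library left out were the alternatives. On simulated counts with known changes in WT Fasting vs. WT Refed, the quasi-likelihood fit called few of the changed genes. A gene that did not pass there is therefore not shown to be unchanged. The other comparisons were not simulated, and not passing does not show a gene to be unchanged there either. No library pair held the same values. Where labels do not say that mice were raised apart, p-values cover only the spread between these libraries.

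The members and lists were chosen with earlier results of these data known. The text names the 7 sirtuins, Nampt, the 3 genes most alike to each sirtuin, protein-coding genes overlapping a sirtuin or starting within 1000 bases of its start on the other strand, and from each list and comparison up to 4 passing members with the lowest p, or the lowest p where none passed. Values of some members of the related gene lists are not reported here, although the counts over each list include them.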

Additional observations from a re-analysis of the deposited data

Results flagged for a closer look

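Over the genes named, 53 were examined for a NAMPT LKO Fasting liver far from the other 4. The limit flagged 2, both in mouse 5, where chance flags about 1 in 20, or 2.65 of the 53. Nfkbib, the neighbour of Sirt2, was at 25.1 CPM in mouse 5 and at 28.2 to 29.3 CPM in the other 4. Ptcd1, a gene alike to Sirt3 in pattern, was at 6.56 CPM in mouse 5 and at 10.1 to 11.4 CPM in the other 4. It was named for its likeness to Sirt3 over libraries that include mouse 5, so the 2 low values are not independent. Sirt3 and Sirt6, also lowest in mouse 5, did not reach the limit (a gap of 0.71 of the range). The groups of 2 and 3 were not examined.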

How the results depend on the processing

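Sirt1 in WT Fasting vs. WT Refed was no longer called with library size alone (log2 fold change 0.574), with every gene of at least 1 count kept (0.616) or with the GC trend removed (0.630), so 0 sirtuins were called there in each case. The cause was not tested. The count was 2 with voomWithQualityWeights and with only the groups compared, where Sirt3 was called (0.648 and 0.634), and 2 with voomWithQualityWeights in NAMPT LKO Fasting vs. WT Refed (Sirt3, 0.482). Called genes of the 6 lists rose from 9 to 36 (voomWithQualityWeights) and 19 (DESeq2) in WT Fasting vs. WT Refed, and from 18 to 43 (voomWithQualityWeights) in NAMPT LKO Fasting vs. WT Refed. Over all genes and all settings, calls ran from 106 to 3331, 0 to 24 and 207 to 4281 in the 3 comparisons. The 946 calls in WT Fasting vs. WT Refed became 189 without WT Refed mouse 1, 106 without mouse 2, 511 without WT Fasting mouse 1, 466 without mouse 2 and 2231 without NAMPT LKO Fasting mouse 5. The 1510 in NAMPT LKO Fasting vs. WT Refed became 322 and 207 without the refed mice, and 960 and 2835 without NAMPT LKO Fasting mice 2 and 5. Of the 21 genes most alike in pattern, 2 stayed among the top 3 when r was taken over deviations from the group means, and 7 without NAMPT LKO Fasting mouse 5, a setting chosen after seeing the data. Without that mouse each sirtuin's share of the summed level in NAMPT LKO Fasting liver moved by less than 1 SD. Shares of the summed sirtuin level cannot change when RPKM is divided by its library sum, and the median in place of the mean moved none by more than 1 SD.

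Signs turned for uncalled values near 0. In WT Fasting vs. WT Refed these were Sirt2 (-0.0346 with library size alone, -0.0289 with the GC trend removed) and Sirt7 (-0.0323 and -0.0409). In NAMPT LKO Fasting vs. WT Fasting it was Sirt4 (0.0227 with the GC trend removed), and in NAMPT LKO Fasting vs. WT Refed Sirt2 (-0.0344) and Sirt4 (-0.0321), both with library size alone. With each library left out in turn, WT Fasting vs. WT Refed gave 0.562 to 0.693 for Sirt1, -0.0295 to 0.0711 for Sirt2, 0.552 to 0.702 for Sirt3, -0.0194 to 0.205 for Sirt4 and -0.0871 to 0.138 for Sirt7, with 0 to 2 sirtuins called. NAMPT LKO Fasting vs. WT Refed gave 0.688 to 0.820 for Sirt1, 0.306 to 0.507 for Sirt3 and -0.0663 to 0.121 for Sirt4, again with 0 to 2 called, and NAMPT LKO Fasting vs. WT Fasting gave -0.153 to 0.0711 for Sirt4. Where 1 refed library was left out, the other was assumed to vary like the remaining groups.

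With a replicate block over the libraries numbered 1 to 3, Sirt4 was 0.0157 in NAMPT LKO Fasting vs. WT Fasting (0.0204 in the same 6 libraries with no block). In both fits 0 genes were called, so even Nampt was missed. Fits that miss the deleted gene cannot show whether a block changes the calls. Same-numbered deviations correlated at 0.104, 0.0782 and 0.0971, and differently numbered ones at -0.167 to 0.13. Among numbers 1 to 3 the differently numbered ones reached 0.0316, below every same-numbered value. The labels do not say that the numbers pair mice, and they were not taken to do so. With 2 refed mice and counts as low as 50 for Sirt6, differences below the intervals given were not detectable.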
